A study of Sus scrofa with 2 samples.

Results

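Among the small RNA sequences of pig testis that were matched to known miRNAs, some had the full length of the miRNA entry but another base at the very end. A tag, meaning a distinct sequence with its read count, belonged to this set when it had the same length as the entry it was listed under and differed from it only at the last base, only at the base before the last (the penultimate base), or at both. The set held 1708 of the 82288 listed tags in the 30-day library and 934 of 28643 in the 180-day library, and 803 tags were found in both. Both libraries were made from testes of the pig breed Junmu-1, taken from sexually immature animals at 30 days of age and from mature ones at 180 days, with no treatment named. Each library pooled RNA from 3 animals and was the only one of its age, so there was no replicate spread, no test and no p-value. The intervals below are exact 95% Clopper-Pearson intervals that cover counting error only, and a difference between the libraries is not shown to be a difference between the ages.

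The 3′ end is the most variable part of a miRNA. After a miRNA has been cut from its hairpin, its last bases can be trimmed, and terminal nucleotidyltransferases can add A or U without a template: TENT2 (GLD2) is known for adding A, and TUT4 and TUT7 are known for adding U. The seed near the 5′ end, which sets most target recognition, is not touched by such changes, whereas the tail is known to bear on the stability of some miRNAs. A miRNA that lost its last base and gained another one has the length of the original and a changed last base. The listed entries come from many species and are mostly not the pig's own, so a changed base can also be the base that the pig genome carries at that place.

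The sequences that held most of these reads are shown first, since the results turn on their last letters. Each entry is followed by the tags listed under it, in the DNA letters of the deposited lists, 5′ to 3′, with T standing for U and with capitals marking the bases that differ between tag and entry.
miR-101a entry: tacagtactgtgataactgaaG
miR-101a tag ending in A: tacagtactgtgataactgaaA
miR-101a tag ending in T: tacagtactgtgataactgaaT
miR-140* entry: taccacagggtagaaccacggaC
miR-140* tag ending in A: taccacagggtagaaccacggaA
miR-140* tag ending in T: taccacagggtagaaccacggaT
let-7c entry: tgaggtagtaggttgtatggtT
let-7c tag ending in A: tgaggtagtaggttgtatggtA
let-7b entry: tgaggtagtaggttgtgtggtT
let-7b tag ending in A: tgaggtagtaggttgtgtggtA
miR-100 entry: aacccgtagatccgaacttgtgT
miR-100 tag ending in A: aacccgtagatccgaacttgtgA
miR-202* entry: ttcctatgcatatacttctttG
miR-202* tag ending in A: ttcctatgcatatacttctttA
In these tags the leading new base was A, beside T in miR-101a and miR-140*. In the next tags it was T.
miR-199a-3p entry: acagtagtctgcacattggttA
miR-199a-3p tag ending in T: acagtagtctgcacattggttT
miR-152 entry: tcagtgcatgacagaacttggG
miR-152 tag ending in T: tcagtgcatgacagaacttggT
miR-103 entry: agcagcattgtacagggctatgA
miR-103 tag ending in T: agcagcattgtacagggctatgT
miR-24 entry: tggctcagttcagcaggaacagG
miR-24 tag ending in T: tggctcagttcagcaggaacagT
miR-34c entry: aggcagtgtagttagctgattgC
miR-34c tag ending in T: aggcagtgtagttagctgattgT
The remaining tags show the rare new base C and the changes that reach the penultimate base.
miR-130a entry: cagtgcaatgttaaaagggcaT
miR-130a tag ending in C: cagtgcaatgttaaaagggcaC
miR-199a-3p entry, penultimate base marked: acagtagtctgcacattggtTa
miR-199a-3p tag with the penultimate base changed: acagtagtctgcacattggtAa
miR-199 entry: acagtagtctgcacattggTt
miR-199 tag with the penultimate base changed: acagtagtctgcacattggCt
let-7b entry, both bases marked: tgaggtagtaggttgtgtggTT
let-7b tag with both bases changed: tgaggtagtaggttgtgtggAA

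These tags carried a small share of the miRNA reads at both ages. They held 276744 of 7525725 listed reads at 30 days, 3.68% (3.66 to 3.69%), and 35857 of 852209 at 180 days, 4.21% (4.17 to 4.25%). Against the perfect tags, which equal their entry over its whole length, the share was 5.47% at 30 days (5.45 to 5.49%) and 6.61% at 180 days (6.55 to 6.68%). A larger share was thus found in the 180-day library. With the same weight for each miRNA name in both libraries, over the 104 names compared below, it was 5.45% and 6.25%. The higher value at 180 days was not particular to changed ends. Same-length tags with 1 mismatch before the last 2 bases had 5.67% (5.65 to 5.69%) and 7.47% (7.40 to 7.54%) against the perfect tags. With the same weights these were 5.97% and 6.31%.

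By reads, the set rested on few tags and on largely the same sequences in both libraries. The 803 tags found in both libraries held 98.8% of the changed-end reads at 30 days and 99.3% at 180 days. By number they were 47.0% of the changed-end tags at 30 days and 86.0% at 180 days. The 180-day library had fewer reads, and the same overlap was not counted for all listed tags, so it is not shown to be particular to changed ends. The 10 most read tags held 50.1% and 47.5% of these reads. The tags were listed under 352 miRNA names, of which 226 had such reads in both libraries, 332 at 30 days and 246 at 180 days. For 14 names, with 325 and 83 reads, no perfect tag was listed, so no share against it could be read. Entries labelled as pig (ssc) held 0.340% and 0.416% of the changed-end reads, and the entries came from 26 species in all.

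Most changes were at the last base alone. Changes of the last base alone held 246792 reads at 30 days, 89.2% of the set (89.1 to 89.3%), and 31547 reads at 180 days, 88.0% (87.6 to 88.3%). Tags with only the penultimate base changed held 7.97% (7.87 to 8.07%) and 9.01% (8.72 to 9.31%). Tags with both bases changed held 2.85% (2.79 to 2.91%) and 3.01% (2.83 to 3.19%). The order of the 3 kinds was the same in both libraries.

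The new last base was A or T in nearly all reads. A made up 54.1% of the last-base changes at 30 days (53.9 to 54.3%) and 54.6% at 180 days (54.0 to 55.1%). T made up 39.5% (39.3 to 39.7%) and 39.3% (38.7 to 39.8%). C held 4.26% (4.18 to 4.34%) and 4.49% (4.26 to 4.72%), and G held 2.11% (2.05 to 2.16%) and 1.68% (1.54 to 1.82%). The makeup by new base thus differed little between the libraries, by less than 1 percentage point for each base.

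The last base was set beside the inner bases of the same miRNAs, where a single mismatch in a same-length tag gives a background measured the same way. A single mismatch was found in 4.91% of reads at the last base at 30 days (4.89 to 4.93%) and in 5.86% at 180 days (5.80 to 5.93%). At the 18 positions from the base 3 from the end to the base 20 from the end, the median was 0.248% at 30 days, with a range of 0.183 to 0.941%, and 0.303% at 180 days, with a range of 0.200 to 1.05%. The last base was therefore 19.8-fold and 19.3-fold above that median, and 5.22-fold and 5.61-fold above the highest inner position. The highest inner positions rested on a single tag each: at 30 days the base 8 from the end, with 70.6% of its reads in a tag listed under miR-100, and at 180 days the base 12 from the end, with 68.6% in a tag listed under miR-509-5p. The penultimate base, at 0.459% (0.453 to 0.465%) and 0.634% (0.612 to 0.656%), was 1.85-fold and 2.09-fold above the inner median.

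The kinds of new base also differed between the end and the inner positions. Inner mismatches at these 18 positions were to A in 7.06% of reads at 30 days and 7.50% at 180 days, to T in 37.2% and 33.8%, to C in 35.1% and 35.2%, and to G in 20.7% and 23.5%. A change to A was thus the rarest kind inside the miRNA and the most common one at its last base. Base by base, a change to A at the last position was 147.7-fold above the median inner position at 30 days and 131-fold at 180 days. A change to T was 29.2-fold and 30.3-fold above it. The excess was far smaller for C, 2.38-fold and 2.21-fold, and for G, 2.04-fold and 2.48-fold, and both were within the range of the inner positions at 30 days. At 180 days G was within that range and C was 1.37-fold above its top.

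At the penultimate base, changes to A were above the inner median and those to T were not. Changes to A there were 11.6-fold above the inner median at 30 days and 11.5-fold at 180 days, whereas changes to T were at 0.714 and 0.821 times the inner median. A single tag, that of miR-199a-3p shown above, held 63.9% and 54.0% of these A reads, and without it the excess was 4.18-fold and 5.30-fold. A held 46.2% of the penultimate changes at 30 days (45.6 to 46.9%) and 45.4% at 180 days (43.7 to 47.2%). C came next with 24.8% (24.3 to 25.4%) and 34.2% (32.5 to 35.8%), the largest difference in makeup between the libraries. Where both bases were changed, the new pair was AA in 38.1% of reads (37.0 to 39.2%) and 46.0% (43.0 to 49.0%), TA in 27.9% (26.9 to 28.9%) and 18.7% (16.5 to 21.2%), and TT in 11.2% (10.5 to 11.9%) and 12.9% (10.95 to 15.04%). The TA reads came largely from the entry miR-1959, named here after its values were seen, with 2089 and 179 reads in a single TA tag.

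The base that was replaced bore on what could be seen, since a base cannot be counted as changed into itself. Entries ending in T, such as those of let-7b and let-7c, had the smallest share of changed last bases, 2.36% at 30 days (2.34 to 2.37%) and 2.82% at 180 days (2.76 to 2.88%). Entries ending in A had 5.35% (5.31 to 5.39%) and 6.82% (6.68 to 6.97%). Entries ending in C had 18.1% (17.9 to 18.2%) and 14.7% (14.4 to 15.1%), and those ending in G had 12.9% (12.8 to 13.0%) and 15.7% (15.4 to 15.96%). Where the entry ended in T, A took 88.4% (88.2 to 88.6%) and 88.8% (88.1 to 89.4%) of the changes. Where it ended in A, T took 92.02% (91.8 to 92.2%) and 92.5% (91.9 to 93.1%).

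Entries ending in C or G leave both A and T open, and there the leading new base varied between miRNAs. Over all such entries ending in G, A took 60.4% of the changes at 30 days (60.03 to 60.7%) and 68.9% at 180 days (67.9 to 69.9%), and over those ending in C it took 54.9% (54.4 to 55.3%) and 51.5% (50.2 to 52.8%). Of the 17 entries with at least 100 changes to A or T in each library, 9 had more A and 7 more T in both libraries, with each interval clear of 50%, and 0 switched. At the T end, the miR-24 entry ending in G had 89 reads changed to A and 5350 to T at 30 days, an A share of 1.64% (1.32 to 2.01%), and 2.05% at 180 days (0.887 to 3.99%). At the A end, that of miR-16 had 96.0% A (93.9 to 97.5%) and 97.1% (91.6 to 99.4%). miR-24 was named after its values were seen.

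A tag is listed under a single entry only, which hides some of these changes. By the listing, 4 entries of miR-30a and miR-30d had 0 reads changed to T and the 22-base entry of miR-107 had 0 changed to A. Counted by sequence under any name, a count chosen after the zeros were seen, these 5 entries did have the other base, and the other 12 kept their counts. The 23-base miR-30a entry then had 1684 reads ending in A and 156 in T at 30 days, 91.5% A (90.2 to 92.8%), and 93.6% at 180 days (91.2 to 95.4%). That of miR-107 had 1605 ending in A and 2015 in T at 30 days, 44.3% A (42.7 to 45.97%), and 33.8% at 180 days (30.3 to 37.4%). The numbers of entries led by A and by T, 9 and 7, were the same by sequence as by the listing.

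A large part of the set is also a shorter entry with a base added. Without its last base, the tag was itself the full sequence of another listed entry for 70.9% (70.7 to 71.1%) of the last-base reads in the 30-day library and for 74.9% (74.4 to 75.4%) in the 180-day one. In these, A held 51.1% (50.9 to 51.3%) and 55.6% (54.9 to 56.2%) and T held 44.7% (44.5 to 44.9%) and 40.0% (39.4 to 40.7%). In the rest, A held 61.5% (61.2 to 61.9%) and 51.5% (50.4 to 52.6%), T 26.8% (26.5 to 27.1%) and 36.9% (35.9 to 38.0%), and C 9.04% (8.83 to 9.25%) and 8.89% (8.27 to 9.54%). No changed-end tag equalled another entry of the deposited lists or lay within a longer one. A changed end that equals another entry can be listed there as a perfect tag and is then not counted here. This absence can thus follow from the listing and says nothing about the changed ends themselves.

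Bases added after a complete entry were counted by sequence. Over all tags that continued a perfect entry by 1 base, T came first with 44.3% of reads at 30 days and 45.8% at 180 days, and A had 32.3% and 29.8%, but many of these tags are themselves longer entries. Among those that were no entry, 1017918 and 119898 reads, A came first with 47.2% and 47.4% and T had 38.7% and 37.8%. G had 15.2% and 12.8% over all tags continued by 1 base, and 3.97% and 3.76% among those that were no entry. C had 8.19% and 11.6% over all, and 10.1% and 11.1% among those that were no entry. How far the listing shapes the makeup of the changed ends was not tested. The tags that were no entry include the changed-end tags described above that are a shorter entry with a base added. Without the changed-end tags, 842901 and 96219 reads were left, of which A held 46.4% (46.3 to 46.5%) and 45.4% (45.1 to 45.7%), T 37.4% (37.3 to 37.5%) and 37.2% (36.9 to 37.6%), C 11.8% (11.7 to 11.8%) and 13.1% (12.8 to 13.3%), and G 4.40% (4.35 to 4.44%) and 4.30% (4.17 to 4.43%). Tags 1 base shorter than a perfect entry were common, at 1997025 reads at 30 days, 29.5% of the reads of both forms (29.4 to 29.5%), and 238546 at 180 days, 32.02% (31.9 to 32.1%). The sum of shorter tags holds some tags more than once, since entries of different species differ in length.

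miR-101a, of a family known for repressing the histone methyltransferase EZH2, led the set in both libraries. Under the name miR-101a, whose entry comes from zebrafish, changed tags outnumbered the perfect ones, with 34391 changed and 10009 perfect reads at 30 days, 77.5% (77.1 to 77.8%), and 4521 and 989 at 180 days, 82.1% (81.0 to 83.1%). The tag ending in A had 26137 and 3653 reads, and that ending in T had 6373 and 585. The sequence without the last base was read 86694 and 7154 times. Of all reads with this stem, A followed in 20.02% at 30 days and 29.0% at 180 days, and T in 4.88% and 4.64%. Under the shorter name miR-101 the share was 0.928% (0.889 to 0.968%) and 1.499% (1.33 to 1.68%). The high share of miR-101a thus belongs to a longer entry that few reads match.

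miR-140*, named for an arm of a miRNA known from cartilage, came next at 30 days. It had 32450 changed and 120941 perfect reads at 30 days, 21.2% (20.95 to 21.4%), and 2583 and 8913 at 180 days, 22.5% (21.7 to 23.2%). Changes to A gave 13.6% (13.4 to 13.8%) and 15.7% (15.0 to 16.4%), and changes to T gave 8.64% (8.49 to 8.79%) and 8.10% (7.57 to 8.66%). It was also among the leading names for G, with 0.714% (0.668 to 0.763%) and 0.447% (0.319 to 0.608%).

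Among the other names led by A, let-7c, a member of the family linked to differentiated cells, had 19433 changed reads against 494998 perfect ones at 30 days, 3.78% (3.73 to 3.83%), and 1214 against 25234 at 180 days, 4.59% (4.34 to 4.85%). let-7b had 4.51% (4.43 to 4.59%) and 5.36% (5.02 to 5.72%). Its changed A tag alone had 10093 and 661 reads. Both let-7 miRNAs thus had a few changed reads in every 100 and the higher value at 180 days.

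miR-100, of a family with genes near let-7 genes, had 17.5% (17.2 to 17.8%) and 17.9% (17.4 to 18.5%), and 11131 of its 11721 changed reads at 30 days were in the A tag shown above. That tag was of a 23-base entry with 7325 and 1650 perfect reads, 60.3% (59.6 to 61.0%) and 64.4% (63.0 to 65.8%) against them. The relative miR-99a had 1.16% (1.13 to 1.19%) and 1.53% (1.40 to 1.66%). In the 22-base entries, changes to A were 0.407% and 0.399% in miR-100 and 0.728% and 0.796% in miR-99a. The high value of miR-100 thus belonged to its 23-base entry. miR-202*, the name used in human for a longer form of the gonadal miR-202-5p, had 89.6% (88.9 to 90.2%) and 91.2% (89.6 to 92.7%), with 7844 changed and 915 perfect reads at 30 days and 1240 and 119 at 180 days. Under the shorter name miR-202-5p, with 282879 and 58005 perfect reads, the share was 0.662% (0.632 to 0.692%) and 0.693% (0.628 to 0.764%). As with miR-101a, the high value belonged to the longer entry.

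The shares per name pool all entries listed under it, also those that already end in the new base. Among names with at least 1000 perfect reads in each library, changes to A alone reached 12.1% (11.6 to 12.6%) at 30 days and 18.9% (17.6 to 20.2%) at 180 days in miR-30a. The value was 11.1% (10.5 to 11.7%) and 11.8% (10.2 to 13.6%) in miR-128, a miRNA known from brain. In miR-21, which is widely expressed, it was 7.05% (6.73 to 7.39%) and 8.41% (7.41 to 9.49%). Of these, the intervals of the libraries did not overlap in miR-30a and miR-21 and overlapped in miR-128. All 1622 and 238 reads of miR-21 changed to A were of a 24-base entry. Against the perfect reads of that entry they were 59.2% (57.3 to 61.0%) and 60.7% (55.7 to 65.6%), with overlapping intervals, so the difference in miR-21 did not hold within the entry.

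Names led by T included miR-199a-3p, which is known from mesenchymal cells. Its tag ending in T had 23425 reads at 30 days and 1434 at 180 days, beside 289719 and 21754 perfect reads, or 7.48% (7.39 to 7.57%) and 6.18% (5.88 to 6.50%). Its tag with A at the penultimate base had 6513 and 792 reads, 2.20% (2.15 to 2.25%) and 3.51% (3.28 to 3.76%), and was the most read of all penultimate changes. The T tag was lower at 180 days and the penultimate A tag higher, and the total for the name was 9.95% (9.85 to 10.1%) and 10.1% (9.76 to 10.5%).

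The highest share of T among names with at least 1000 perfect reads in each library was that of miR-143, a miRNA of smooth muscle. It had 8461 and 2931 reads changed to T, 29.3% (28.7 to 29.8%) and 30.8% (29.9 to 31.7%). Of these, 8397 and 2912 were of a 22-base rat entry ending in A, with 413 and 111 perfect reads. Most perfect reads of the name were of other entries, so its share mixes entries. miR-320a, which bypasses the Drosha step, followed with 11.3% (10.98 to 11.6%) and 14.1% (12.2 to 16.1%). miR-103, whose gene lies within a pantothenate kinase gene, had 10.9% (10.6 to 11.2%) and 14.4% (13.6 to 15.3%), and miR-25 had 7.30% (6.94 to 7.67%) and 9.22% (7.61 to 11.04%). T shares were thus higher at 180 days in miR-103 and miR-320a, with intervals apart. In miR-143 the intervals of the pooled share were also apart. Within its rat entry they overlapped, at 95.3% (94.8 to 95.7%) and 96.3% (95.6 to 97.0%). T shares were less clearly higher in miR-25, where the intervals overlapped by a narrow margin. In miR-140*, also among the leading names for T, the share given above was lower at 180 days, with overlapping intervals.

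The changed reads of miR-152 and miR-24 were mainly listed under an entry with few perfect reads of its own. miR-152 had 10909 changed and 10825 perfect reads at 30 days, 50.2% (49.5 to 50.9%), and 521 and 594 at 180 days, 46.7% (43.8 to 49.7%). Of these perfect reads, 10777 and 591 were of a 21-base entry, so the share of miR-152 mixes entries. The opossum entry of miR-152 ending in G had 47 and 2 perfect reads, whereas the T tag had 7505 and 332 and the A tag 3226 and 180. For miR-24, the dog entry ending in G had 25 and 4 perfect reads beside 5350 and 383 reads of the T tag. In both cases the entry's own last base was rarely read in pig testis.

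The meiotic germ cell miRNA miR-34c had changed ends mainly at 180 days, when it was abundant. It had 7 changed and 30 perfect reads at 30 days, 18.9% (7.96 to 35.2%), and 1347 and 13858 at 180 days, 8.86% (8.41 to 9.32%). The tag ending in T had 5 and 917 reads and that ending in A had 2 and 381. Its relative miR-449a had 1 and 48 changed reads, with 1.43% at 180 days (1.06 to 1.90%). With so few reads at 30 days, a change in the share of miR-34c was not detectable.

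Changes to C held few reads in most names. Among names with at least 1000 perfect reads in each library, miR-130a led and had 3029 and 185 reads changed to C, 20.997% (20.3 to 21.7%) at 30 days and 14.4% (12.6 to 16.5%) at 180 days. The next of these names were miR-1 of striated muscle with 3.54% (3.15 to 3.96%) and 2.51% (2.07 to 3.01%) and miR-320a with 1.26% (1.14 to 1.39%) and 1.46% (0.837 to 2.36%). miR-145 and miR-30a-5p followed with 0.659% and 0.724% at 30 days. Below that limit, miR-101a had 11.9% (11.3 to 12.5%) and 18.9% (16.8 to 21.2%) C. For G, the first 5 names above the limit stayed under 1%: besides miR-140*, miR-21 had 0.987% (0.859 to 1.13%) and 0.841% (0.528 to 1.27%), miR-199a-3p 0.476% and 0.671%, miR-128 0.309% and 0.528%, and miR-23a 0.210% and 0.316%. Below the limit, miR-146b had 7.34% (5.45 to 9.65%) and 7.78% (5.50 to 10.6%) G and miR-214 5.33% (4.36 to 6.46%) and 5.45% (2.52 to 10.1%), both named after their values were seen.

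The leading new base of a miRNA was nearly always the same in both libraries. Both were read against the same entries, and an entry ending in A or T leaves only the other of these 2 bases to be counted. The agreement is therefore in part set by the entries. Of 67 names with at least 20 last-base changes in each library, A led in 41 at 30 days and 43 at 180 days, T in 22 and 21, C in 3 and 2 and G in 1 and 1. The leading base was the same in 65, and the exceptions were miR-1, from C to A, and miR-145*, from T to A. C led in both libraries in miR-130a and miR-101, and G in miR-146b. The names in this paragraph other than miR-130a, miR-101 and miR-1 were chosen after their values were seen.

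The makeup by new base differed between miRNA families, but a base cannot be counted as changed into itself. The let-7c entry ends in T and that of miR-29a in A, so these bases were not counted there as changes. The let-7c stem is its entry without the last base. Of reads continuing it by 1 base, 96.8% and 96.2% ended in T and 3.12% and 3.65% in A. For miR-29a, 98.0% and 96.9% ended in A and 1.70% and 2.75% in T. Families are thus described below by counted changes only. The let-7 family with miR-98 had 47120 and 3725 changed reads, a share of 2.40% (2.38 to 2.42%) and 2.29% (2.22 to 2.37%), and A took 93.4% and 90.2% of its last-base changes. Its most abundant name, let-7, had 1.04% (1.02 to 1.07%) and 1.28% (1.19 to 1.37%). Most of its reads were of the 22-base nematode entry with the let-7a sequence, with 0.965% (0.938 to 0.992%) and 1.14% (1.05 to 1.24%). Also led by A were the family of miR-99 and miR-100 with 90.3% and 93.9%, miR-26 with 93.7% and 94.1%, miR-30 with 89.0% and 93.5%, miR-181 with 92.4% and 90.7%, and the family of miR-15 and miR-16 with 87.3% and 87.5%. A smaller lead of A was found in miR-101 with 74.2% and 78.6%, miR-202 with 72.6% and 71.4%, miR-10 with 56.7% and 69.8%, and miR-140 with 54.7% and 59.6%.

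T led the counted changes in the other families at both ages, apart from the group of miR-17 to miR-20 with miR-93 and miR-106. In that group A held 50.3% and 48.2% and T 49.0% and 51.8%. By the listing, which left out the miR-107 tags ending in A described above, T held 95.9% and 97.4% in the family of miR-103 and miR-107. It held 92.3% and 90.6% in that of miR-23, miR-24 and miR-27, and 91.0% and 93.4% in that of miR-143 and miR-145. It held 87.7% and 83.4% in miR-199, 85.0% and 86.7% in miR-29, 78.7% and 79.8% in the family of miR-25 and miR-92, and 62.3% and 52.3% in that of miR-148 and miR-152. In miR-125, with 642 and 32 changed reads, T held 84.0% and 75.0%. The family of miR-34 and miR-449 had 67.5% T and 30.2% A at 180 days and 8 changed reads at 30 days. No changed-end tag was listed for the miR-506 to miR-514 names, which had 3 and 2 perfect reads.

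The overall share per family ranged widely. It was highest in the family of miR-143 and miR-145, with 28.2% (27.8 to 28.7%) at 30 days and 28.9% (28.1 to 29.7%) at 180 days. Most of its changed reads were of the miR-143 rat entry described above, with few perfect reads of its own. The family of miR-148 and miR-152 had 25.7% (25.3 to 26.1%) and 23.9% (22.3 to 25.6%). Of its 12203 and 644 changed reads, 10909 and 521 were of miR-152, whose share mixes entries. The median over its 3 compared names was 5.20% and 7.89%. The group of miR-17 to miR-20 with miR-93 and miR-106 had 23.3% (22.4 to 24.2%) and 24.2% (21.8 to 26.6%). The family share was lowest in miR-10, with 1.62% (1.52 to 1.73%) and 1.86% (1.52 to 2.26%), and in miR-125, with 2.16% (1.998 to 2.33%) and 1.41% (0.968 to 1.99%). miR-29, which is known to repress collagen genes, had 2.22% (2.14 to 2.31%) and 3.73% (3.51 to 3.96%), and miR-26 had 4.79% (4.62 to 4.97%) and 6.75% (6.16 to 7.38%).

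In the family of miR-99 and miR-100 the pooled share differed more than that of either leading name. The family's share was 3.09% (3.05 to 3.14%) at 30 days and 6.995% (6.78 to 7.21%) at 180 days, whereas the odds ratio of 180 over 30 days, defined below, was 1.03 (0.986 to 1.08) for miR-100 and 1.32 (1.21 to 1.45) for miR-99a. miR-100, with the higher share, held 55221 of the family's 551101 perfect reads at 30 days and 14664 of 50084 at 180 days. Its higher share rested on the 23-base entry described above.

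The few names that state their arm gave a further description. Over the 9 compared names that state the 5p arm, the median share was 2.38% at 30 days and 1.69% at 180 days. Over the 6 that state the 3p arm it was 6.12% and 6.16%, over the 8 with a star 9.36% and 10.6%, and over the 81 with no arm 4.82% and 6.16%. The median over all 104 was 4.79% and 5.57%. The 3′ end of a 3p arm is the end of the hairpin cut by Drosha, and that of a 5p arm is cut by Dicer. For most names the arm is not stated, so the arms were not compared further.

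How the changed ends differed between the libraries was compared per miRNA, as the odds of changed against perfect reads at 180 days over those at 30 days. Names with at least 100 perfect reads in each library and 10 changed reads over both were compared, which held 96.2% and 92.1% of the changed-end reads. A name was called when the odds ratio was at least 2 or at most 0.5 and its exact interval excluded 1. Of 104 names, 4 (3.85%) were called higher at 180 days and 2 (1.92%) lower. Inner single mismatches gave 7 of 105 (6.67%) higher and 1 (0.952%) lower by the same rule. The members' shares of calls were thus near that background, below it for higher calls and above it for lower ones. For 62 of the 104 the interval lay wholly within 2-fold.

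Smaller differences leaned to the 180-day library. The median odds ratio was 1.12, with 69 names above 1 and 35 below, and the interval lay above 1 for 34 names and below 1 for 11. Inner mismatches had the same median, 1.12, with 75 names above 1 and 30 below, and intervals above 1 for 31 names and below 1 for 2. The order of the names was kept: across the 104 names, the shares of both libraries had a rank correlation of 0.923, given as a description, since names share libraries and entries. By new base, the median odds ratio was 1.11 for A over 76 names, 0.976 for T over 51, 1.18 for C over 51 and 0.924 for G over 42.

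Of the 4 names called higher, 3 had few changed reads. miR-221*, the rarer arm of a miRNA of undifferentiated spermatogonia, had 20 changed and 2443 perfect reads at 30 days and 8 and 177 at 180 days, an odds ratio of 5.52 (2.07 to 13.3). Of the 8 reads, 2 were of another entry with 0 perfect reads, and the main entry alone had an odds ratio of 4.14 (1.34 to 10.9). miR-148b-3p had 3.79% (3.18 to 4.48%) and 7.89% (5.30 to 11.2%), an odds ratio of 2.18 (1.37 to 3.35), with 119 and 25 reads in its A tag. miR-499, of a myosin gene, had 63 and 17 changed reads and an odds ratio of 2.08 (1.11 to 3.71). Of these reads, 45 and 16 were of an entry with 0 perfect reads in either library, and the entry that held all 149 perfect reads at 180 days had 17 and 1 changed reads and an odds ratio of 0.450 (0.0107 to 2.92), so the call of miR-499 did not hold within an entry. These 3 calls rested on 8 to 28 changed reads at 180 days.

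The call of miR-199 rested on the penultimate base. This platypus entry, 1 base shorter than that of miR-199a-3p, had 776 changed and 240692 perfect reads at 30 days, 0.321% (0.299 to 0.345%), and 148 and 12467 at 180 days, 1.17% (0.993 to 1.38%), an odds ratio of 3.68 (3.06 to 4.40). Its tag with C at the penultimate base had 0.186% (0.169 to 0.204%) at 30 days and 0.906% (0.748 to 1.09%) at 180 days, the latter from 114 reads. Other abundant tags with a penultimate C differed in this respect. They were higher in the 180-day library in miR-99a, at 0.233% (0.216 to 0.251%) and 0.663% (0.554 to 0.788%), in let-7c, at 0.145% (0.135 to 0.156%) and 0.324% (0.258 to 0.402%), and in let-7, at 0.0976% (0.0892 to 0.106%) and 0.229% (0.188 to 0.276%), but not in miR-202-5p, at 0.116% (0.104 to 0.129%) and 0.117% (0.0909 to 0.148%). All 5 are changes from T to C, as the entries and tags show, and with only the last base counted miR-199 was no longer called. Changes from A to C at this base were 0.266% (0.222 to 0.317%) and 0.771% (0.583 to 1.00%) in miR-107. In miR-101 they were 0.310% (0.275 to 0.350%) and 0.473% (0.328 to 0.660%). Over all names, C took 65.0% and 83.8% of the penultimate changes from A, and 24.8% and 34.5% of those from T. At the inner positions the median share of changes to C was 0.0920% at 30 days and 0.126% at 180 days, and the part of sequencing error in these tags was not tested.

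On the other side, miR-708 had fewer changed ends in the 180-day library. It had 1107 changed and 4634 perfect reads at 30 days, 19.3% (18.3 to 20.3%), and 20 and 186 at 180 days, 9.71% (6.03 to 14.6%), an odds ratio of 0.450 (0.267 to 0.720). Its A tag went from 842 to 15 reads and its T tag from 231 to 5. miR-423-3p, which lies outside the rule for named miRNAs, had 89 changed reads at 30 days and 1 at 180 days, an odds ratio of 0.0976 (0.00242 to 0.571). Among the abundant names that did not reach 2-fold, miR-130a had an odds ratio of 0.701 (0.602 to 0.813), miR-30a-5p of 0.755 (0.655 to 0.868), miR-29a of 1.71 (1.59 to 1.85), miR-30a of 1.70 (1.54 to 1.87), and miR-101 of 1.62 (1.43 to 1.84).

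Separated by new base, other names passed the rule, but a name can pool entries that do and do not end in the new base. For A, 3 of 76 (3.95%) were higher, miR-140, miR-148b-3p and miR-503, and 3 (3.95%) lower, miR-130b, miR-708 and miR-423-3p. For T, 2 of 51 (3.92%) were higher, miR-92a and miR-499, and 1 (1.96%) lower, miR-1. For C, 5 of 51 (9.8%) were higher, let-7g, miR-185, miR-1937b, miR-21 and miR-99a, and 0 (0%) lower. For G, 0 of 42 (0%) were higher and 2 (4.76%) lower, miR-30a-5p and miR-30d. The names in this paragraph were listed because they were called, after their values were seen.

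The same rule was then applied to changed and perfect reads of the same entry, without entries that end in the new base, a comparison chosen after seeing the data. For A, 5 of 89 entries (5.62%) were higher and 5 (5.62%) lower. The higher ones were of miR-148b-3p, miR-26a, miR-30a, miR-374a and miR-503, and the lower ones of let-7d, let-7i, miR-130b, miR-423-3p and miR-708. For T, 4 of 55 (7.27%) were higher and 0 (0%) lower. The higher ones were of miR-101, miR-107, miR-23a and miR-23b. The 22-base miR-107 entry had 16.2% (15.6 to 16.9%) changed to T at 30 days and 40.4% (37.5 to 43.3%) at 180 days. For C, 8 of 57 (14%) were higher and 0 (0%) lower, and for G, 0 of 45 (0%) were higher and 2 (4.44%) lower. Those higher for C were of let-7, let-7g, miR-100, miR-101, miR-185, miR-1937b, miR-21 and miR-99a, and those lower for G of miR-30a-5p and miR-30d. The names in this paragraph were listed because they were called.

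Some of the calls by name did not hold within an entry. miR-140 had 235 and 77 reads changed to A, of which 225 and 71 were of an entry ending in G with 239 and 50 perfect reads, an odds ratio of 1.51 (0.987 to 2.31). All 30 and 5 reads of miR-92a changed to T were of an entry with 0 perfect reads in either library. miR-499 had 9 and 1 reads changed to T under the entry with perfect reads, an odds ratio of 0.851 (0.0193 to 6.22). The miR-1 reads changed to T were of an entry with 2 and 6 perfect reads. The calls of miR-148b-3p, miR-503, miR-130b, miR-708 and miR-423-3p for A held within their entries, as did those of miR-185, miR-1937b and miR-21 for C, that of miR-30a-5p for G, and 1 entry each of let-7g and miR-99a for C and of miR-30d for G.

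The tissue label was checked with marker miRNAs. The 4 gonadal miR-202 names summed to 68481 RPM, reads scaled to the listed total, at 30 days and 110872 at 180 days, and the 4 names of meiotic and later germ cells to 9.70 and 30783.5. Striated muscle names summed to 1428 and 6527, red blood cell names to 1577 and 3809, liver miR-122 to 21.3 and 217, and epithelial names to 67.6 and 83.3, where miR-429 had 0 reads at 180 days. In whole tissue, fewer cells of a type and less RNA per cell cannot be told apart, and the part of a changed cell makeup in the differences above was not tested.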

How the data were processed

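Per the labels' protocols, RNA of 18 to 30 nucleotides was size-selected on a gel, and the adapter-ligated product went through 15 cycles of PCR before Illumina 1G sequencing. The authors deposited 1 list of tags per library, with a raw read count for each tag, not normalized, its sequence and the name and sequence of 1 miRNA entry. The deposited alignment score and the numbers of matched and mismatched bases were not used. How tags were aligned, with which miRBase release and against which genome, is not given in the sources used here. No molecular identifiers are named, so reads are not independent molecules.

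Tags and entries were compared base by base with Python 3.11.15, pandas 2.3.3 and scipy 1.17.1. Names are the deposited ones without the species prefix. Shares are changed-end over changed-end plus perfect reads. Odds ratios have exact conditional 95% intervals, tested on simulated data. The miRNAs named were the 10 with most changed-end reads per library, the 5 with the highest share for each new base (1000 or more perfect reads in each library), up to 5 of the highest and lowest called odds ratios with 1000 or more perfect reads in a library, and the 2 most read of each family list. Others are marked. The members and lists were chosen with earlier results of these data known.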

Additional observations from a re-analysis of the deposited data

How the results depend on the processing

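Shares are given for 30 and 180 days in that order. With only the last base changed, the share of changed-end reads was 4.91% and 5.86%, and without miR-101a it was 4.83% and 5.84%. Over all reads under the same names it was 3.75% and 4.41%, and with common weights, chosen after seeing the data, 5.45% and 6.25%. Without tags that are a shorter entry with 1 base more, also chosen after seeing the data, it was 2.08% and 2.35%. The 180-day share was the higher one under each of these. Without miR-101a, A held 50.5% and 50.1% and T 42.8% and 43.6% of the last-base changes, and without the shorter entries with 1 base more A held 61.5% and 51.5% and T 26.8% and 36.9%.

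The 4 higher and 2 lower names were not the same under each setting. Without tags of 1 read, 4 names were lower, as miR-151-5p and miR-423-5p were gained. With 1000 or more perfect reads in each library, 1 name, miR-199, was higher and 0 were lower, of 43 compared. With names split by entry sequence, 7 were higher, and without the shorter entries with 1 base more 7 were higher too, where miR-499 was lost and miR-107, miR-128, miR-202* and miR-29c were gained. With only the last base changed, 3 of the 4 higher names remained and miR-199 was lost, and miR-1937b was gained. Leaving out tags equal to another entry removed no tag, since no changed-end tag equalled one, so that setting could not change a result. The alternative that compares the changed bases with the pig hairpin was not run. No paired analysis was possible because each age had 1 library. Depth limits the 180-day library, where rare changed tags held few reads.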
